A study of Homo sapiens with 8 samples.

Results

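The genes described here are 37 genes of the amino acid response that is run by the transcription factor ATF4, together with aminoacyl-tRNA synthetases. They were listed by their known function, with earlier results of these data in view, and fall into 4 roles: 7 amino acid transporters, 10 enzymes of amino acid and one-carbon metabolism, 8 genes of tRNA charging and tRNA export, and 12 stress factors. The array holds 57 probes for them among 41000 probes and 30982 gene names. All 37 genes kept at least 1 probe after the filter on dim spots, with 53 of the 57 probes.

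The cells were CAL-27, an established human line from a head and neck squamous carcinoma. They were serum-starved for 24 h, controls included, and then kept for 24 h without inhibitor (control, n = 3), with enzastaurin at 10 µM (n = 3) or with a compound the labels call Go (n = 2), whose dose the labels do not give. Both compounds stand in the series title as inhibitors of protein kinase C, which is spelled PCK there, and the design asks which genes each of them regulates. Total RNA of each sample was hybridised to a single-colour array, and the labels do not say whether replicates came from separate cultures, so a p-value here reflects spread among 8 arrays that may be technical.

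ATF4 is the effector of the integrated stress response. When amino acids run short, uncharged tRNA activates the kinase GCN2, encoded by EIF2AK4, which phosphorylates the translation factor eIF2 alpha, and translation of the ATF4 message rises while most other translation falls. ATF4 protein pairs with C/EBP or AP-1 partners and binds composite response elements in the promoters of genes that import amino acids, make serine, glycine, asparagine and cysteine, and charge tRNA. Much of this control acts on ATF4 protein, which these arrays do not measure.

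All levels below are log2 of the deposited background-subtracted intensity plus an offset of 50, quantile normalised between arrays, and all differences are differences of such values, so folds of dim genes are understated. A gene was called where limma's adjusted p, taken over all 24771 probes tested, was under 0.05, and 1 probe stood for each gene. A level of 1 probe cannot be set against that of another. In RNA from whole cultures, fewer cells of a type and less RNA per cell cannot be told apart.

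The arrays fell into 2 sets by mean horizontal spot position, split at the widest gap, and only the Go arrays were divided between them. In 1 set were control 1, 2 and 3, at 10942 to 10951 µm, with Go 1 at 10930 µm. In the other were Go 2 and enzastaurin 1, 2 and 3, at 10897 to 10905 µm. Each Go array thus lies in a different position set, and enzastaurin and control share none. Over all probes tested, Go 1 and Go 2 differed by a root mean square of 0.412, control 1 and control 3 by 0.468, and enzastaurin pairs by 0.122 to 0.153. Go 2 differed from the enzastaurin arrays by 0.301 to 0.317, less than from Go 1. Go 1 differed from control 1, 2 and 3 by 0.7, 0.567 and 0.362, and from the enzastaurin arrays by 0.423 to 0.44. Between 52.1% and 57.3% of probes were above background on an array. The 9 squamous epithelial markers with a probe were above background on every array, with mean levels of 11.73 to 12 in controls, 11.88 to 11.98 with enzastaurin and 11.64 to 11.68 with Go. Of 6 fibroblast markers 0 were above background on every array, with mean levels of 6.02 to 6.32 over all groups, and PDGFRB was above background on none. Of 6 leukocyte markers 4 were above background on every array, with mean levels of 7.25 to 7.39, while the pan-leukocyte marker PTPRC was above background on none. Of 5 endothelial markers 1 was, with mean levels of 5.99 to 6.16, and PECAM1, KDR and TEK were above background on no array.

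The response element that ATF4 binds with C/EBP partners has the core TGATGNAA, and its presence is shown first because it is a property of the genes that does not depend on the arrays. RefSeq promoters of 300 bases (build GRCh38.p14, 250 bases before and 50 after the start) were matched for 32 of the 37 genes, and 12 of them (37.5%) held TGATGNAA on either strand. Among 35116 RefSeq promoters of that length 3.62% held it, and among 22198 of protein-coding genes 2.69%. The 37 genes were listed by their known part in this response, so the higher share is not independent evidence about them. By role, the motif was in 4 of 6 transporter promoters, 1 of 7 enzyme promoters, 4 of 8 promoters of the tRNA genes and 3 of 11 stress factor promoters. A match describes these letters only and is not a binding site shown in these cells. Among the genes whose values on every array are given below, the 6 with the motif and the largest difference between Go and enzastaurin were taken. The upstream stretches of 4 of them are printed in the direction of the gene, with the motif, or its reverse complement, in capitals. They lie at chr15:40953221-40953325 (CHAC1, plus strand, motif at -209 to -202 from the start), chr7:97872413-97872532 (ASNS, minus strand, -68 to -61), chr16:70289630-70289749 (AARS1, minus strand, -187 to -180) and chr1:212565160-212565279 (ATF3, plus strand, -191 to -184).
CHAC1: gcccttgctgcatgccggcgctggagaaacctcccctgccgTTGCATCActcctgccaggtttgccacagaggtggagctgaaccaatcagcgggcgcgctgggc
ASNS: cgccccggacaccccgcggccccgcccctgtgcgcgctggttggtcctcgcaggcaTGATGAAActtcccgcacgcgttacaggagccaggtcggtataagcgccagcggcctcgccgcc
AARS1: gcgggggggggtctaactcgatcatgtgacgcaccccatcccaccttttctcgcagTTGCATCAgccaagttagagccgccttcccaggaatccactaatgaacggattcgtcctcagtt
ATF3: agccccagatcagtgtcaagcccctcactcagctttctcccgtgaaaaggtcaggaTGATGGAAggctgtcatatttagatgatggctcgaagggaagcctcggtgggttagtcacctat
In SLC3A2 and SLC7A1 the motif lies just after the start, at 38 to 45 and at 8 to 15. The sites alone are chr11:62881726-62881748 (plus strand) and chr13:29595664-29595691 (minus strand).
SLC3A2: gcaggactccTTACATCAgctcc
SLC7A1: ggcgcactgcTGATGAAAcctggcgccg
Of these 6 genes, ASNS and SLC3A2 passed the test between the compounds, and CHAC1, AARS1, ATF3 and SLC7A1 did not. Since the size of that difference chose the 6, nothing is read from it here.

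With Go, 11 of the 37 genes were higher than with enzastaurin and 0 were lower, against 2.37% higher and 1.63% lower of all 18833 gene names tested. The 11 were SLC3A2, SLC7A5, SLC38A2, CBS, CTH, ASNS, PCK2, NUPR1, ATF4, STC2 and CEBPG. At an unadjusted p under 0.05 limma gave 24 higher and 0 lower, and limma was the tool of every alternative run. The share of all gene names at that unadjusted threshold is not given, so such counts here and below cannot be set against it. The median difference of the 37 genes was 0.39, and that of all gene names 0.03. Both Go arrays were above every enzastaurin array for 26 of the 37 genes, against 26.6% of all gene names, and below them for 0, against 19.8%. The heat map of all genes by array shows that the groups lie differently about control from gene to gene. CBS, SLC3A2 and ATF4 were below every control array with enzastaurin, while ASNS and NUPR1 differed from control by -0.05 each with enzastaurin and were above every control array with Go.

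**Figure D1:**
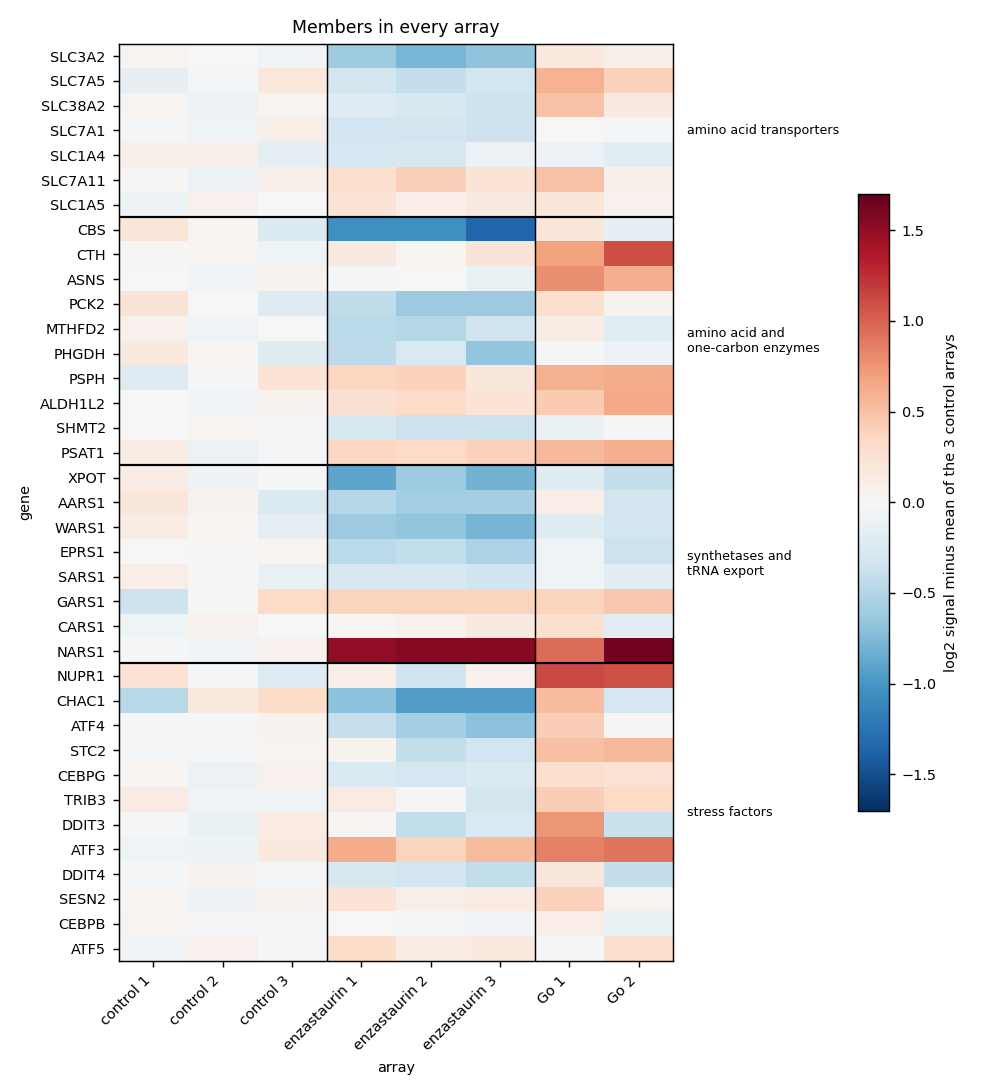
Each row is 1 of the 37 genes and each column 1 of the 8 arrays; the colour gives the log2 signal minus the mean of the 3 control arrays, from blue (lower) to red (higher), and black lines part the groups and the 4 roles. CBS is bluest on the enzastaurin arrays (10.23, 10.23 and 9.93 against 11.48, 11.31 and 11.03 in controls), and NARS1 is red on all 5 treated arrays.

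With enzastaurin, 16 of the 37 genes were lower than control and 4 were higher, against 32.5% lower and 20.9% higher of all gene names. The median difference was -0.22, and -0.1 for all gene names. Every enzastaurin array was below every control array for 18 genes, against 41.9% of all gene names, and above for 9, against 26.1%. As shares of the 37 genes, 43.2% were lower and 10.8% higher. These 2 groups share no position set, and with the set as a block, which compares them only through the Go arrays, 1 gene (NARS1) was higher and 0 were lower, with 5 and 5 at an unadjusted p under 0.05. With that block the calls over all gene names fell from 10062 to 564, so the loss is not particular to these genes. Scaling each array to its median in place of quantile normalisation gave 9 higher and 5 lower. That scaling moved the median of all gene names by 0.145, from -0.103 to 0.042, the median of the 37 genes from -0.22 to -0.01, and the share of calls that were higher from 39.1% to 58.6%.

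With Go, 11 genes were higher than control and 0 lower, against 12.9% higher and 16.4% lower of all gene names. At an unadjusted p under 0.05 there were 14 higher and 2 lower. The median difference was 0.16, and -0.08 for all gene names. Both Go arrays were above every control array for 15 genes, against 22.3% of all gene names, and below them for 3, against 34.4%. The 11 were ASNS, ATF3, NARS1, CTH, PSAT1, NUPR1, ALDH1L2, PSPH, SLC7A5, STC2 and CEBPG. A fit of only the Go and control arrays called 0 members higher (11 at an unadjusted p under 0.05) and 1 gene name of the whole array, and the comparison of Go 1 with the controls inside their position set called 0 (16 at an unadjusted p under 0.05). Scaling to the median moved the share of calls that were higher from 44.1% to 64.1% in this comparison and from 59.3% to 36.7% between Go and enzastaurin. The 3 comparisons share arrays and are given side by side for each gene.

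**Figure D2:**
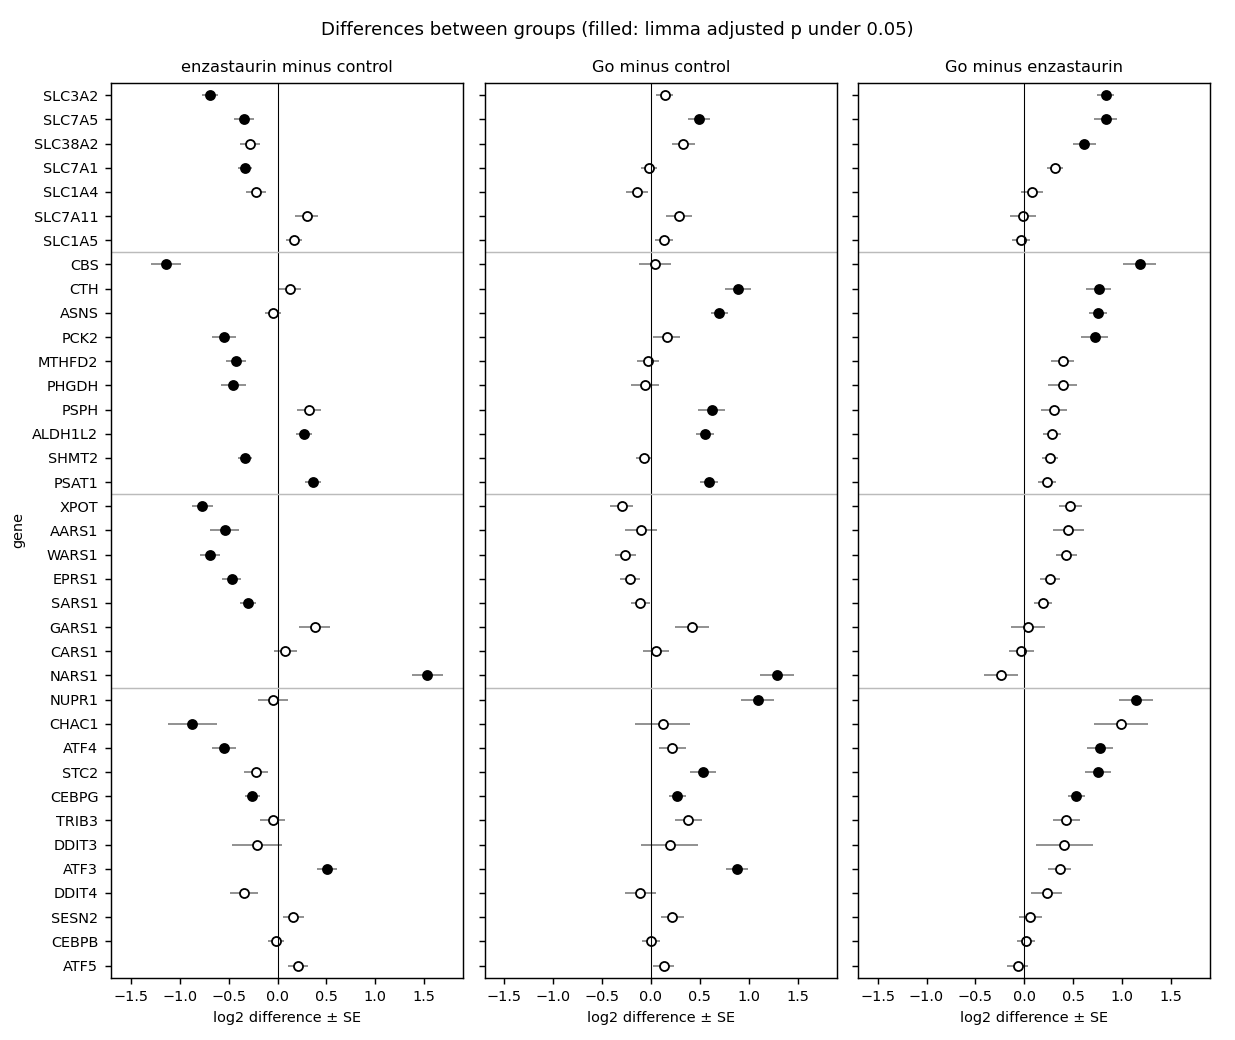
Points give the log2 difference of each gene and lines its standard error (n = 3 controls, 3 enzastaurin, 2 Go), in panels for enzastaurin minus control, Go minus control and Go minus enzastaurin; filled points passed limma's adjusted p of 0.05 and grey lines part the roles. In the panel on the right 11 points are filled and all lie above 0.

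The mRNA signal of 3 of 7 amino acid transporters was higher with Go than with enzastaurin: both chains of the leucine transporter and SLC38A2. That is 42.9% of the 7, beside 2.37% of all gene names. SLC3A2, the heavy chain that carries several light chains to the membrane, read 13.87, 13.84 and 13.78 on the control arrays, 13.22, 13.05 and 13.14 with enzastaurin, and 14 and 13.93 with Go. Its enzastaurin values lie below all other arrays. The difference between Go and enzastaurin was 0.83 ± 0.086 (SE), 1.78-fold, with an adjusted p of 0.00594. It was -0.69 ± 0.077 for enzastaurin against control (adjusted p 0.000644) and 0.14 for Go against control, which was not called (adjusted p 0.247). A second, dimmer SLC3A2 probe was called for enzastaurin against control (-0.77, adjusted p 0.0018) but not between the compounds (0.57, adjusted p 0.0597), and gave -0.2 for Go against control (adjusted p 0.283), opposite in sign to the first.

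SLC7A5, the light chain that imports leucine and other large neutral amino acids in exchange for glutamine, read 13.14, 13.24 and 13.45 in controls, 12.96, 12.87 and 12.97 with enzastaurin, and 13.87 and 13.67 with Go. The 3 groups did not overlap. Go was above enzastaurin by 0.83 ± 0.114 (adjusted p 0.0109) and above control by 0.49 ± 0.114 (adjusted p 0.0212), and enzastaurin differed from control by -0.34 ± 0.102 (adjusted p 0.0227). A second, dimmer SLC7A5 probe gave 0.6 between the compounds (adjusted p 0.135) and -0.1 for Go against control.

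SLC38A2, a sodium-coupled importer of small neutral amino acids such as glutamine and alanine, read 12.6, 12.47 and 12.61 in controls, 12.34, 12.29 and 12.21 with enzastaurin, and 13.06 and 12.71 with Go. Each Go array was above all others, and Go 1 stood 0.5 above the control mean and Go 2 0.43 above the enzastaurin mean. Between the compounds the difference was 0.61 ± 0.117 (adjusted p 0.0327). Its other probe was called in the same direction, with 0.81 (adjusted p 0.0314). For Go against control the first probe gave 0.33 and was not called (adjusted p 0.0659), while the other gave 0.76 and was called (adjusted p 0.0154). Enzastaurin against control was called by neither, with -0.28 and -0.05 (adjusted p 0.0525 and 0.773). SLC7A1, the carrier of arginine and lysine, read 9.4, 9.38 and 9.53 in controls, 9.11, 9.13 and 9.08 with enzastaurin, and 9.43 and 9.42 with Go. It fell with enzastaurin by 0.33 ± 0.074 on the log2 scale (adjusted p 0.00761), while the 0.31 between the compounds was not called (adjusted p 0.0804). Its second probe gave -0.19 and -0.09 there, neither of them called (adjusted p 0.278 and 0.768). That probe was above background on every control and enzastaurin array but on 0 of 2 Go arrays.

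The other 3 transporters passed no test by the probe that stands for the gene. The glutamine importer SLC1A5 differed between Go and enzastaurin by -0.03 (95% interval -0.25 to 0.18) and the alanine and serine carrier SLC1A4 by 0.08 (-0.17 to 0.33). For enzastaurin against control the probes of SLC1A4 disagreed, with -0.22 (adjusted p 0.0976) by the first and 0.31 (adjusted p 0.0414) by a dimmer one, which was called higher. That dimmer probe was above background on 1 of 3 control, 3 of 3 enzastaurin and 0 of 2 Go arrays. SLC7A11, the cystine importer, was dim, above background on 1 of 3 control arrays, 3 of 3 enzastaurin arrays and 1 of 2 Go arrays. SLC3A2 was called between the compounds in all 20 alternatives (adjusted p 0.00162 to 0.0413). SLC7A5 and SLC38A2 lost their calls whichever enzastaurin array was left out, with differences near those of all arrays, and the calls over all gene names fell from 754 to 127, 93 and 135 without enzastaurin 1, 2 and 3. In that order SLC7A5 gave 0.85, 0.8 and 0.85 (adjusted p 0.058, 0.0665 and 0.0523, range over 20 alternatives 0.00172 to 0.0665). SLC38A2 gave 0.64, 0.61 and 0.57 (adjusted p 0.115, 0.132 and 0.121, range 0.00596 to 0.132), 0.61 without control 2 (0.0692) and 0.43 without Go 1 (0.0657). For Go against control, SLC7A5 gave 0.43 without control 1, 0.47 without control 2 and 0.39 without Go 1 (adjusted p 0.0534, 0.0727 and 0.053, range 0.00568 to 0.286), and SLC38A2 had 0.0426 without Go 2 (range 0.00838 to 0.285). With the position set as a block, enzastaurin against control gave -0.63 for SLC3A2 (adjusted p 0.0697, range 1.44e-07 to 0.0697), -0.14 for SLC7A5 (0.642, range 5.12e-05 to 0.808) and -0.32 for SLC7A1 (0.209, range 5.39e-05 to 0.397). For enzastaurin against control, the call of SLC7A5 was also lost without control 2, enzastaurin 1, 2 or 3 (-0.36, -0.36, -0.31 and -0.36, adjusted p 0.0549, 0.0579, 0.0826 and 0.0534), and those of SLC38A2 and SLC7A11 were gained without Go 1 or Go 2 (0.0163 and 0.0192). SLC1A4 gained a call there without control 3 (-0.3, adjusted p 0.0243).

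**Figure D3:**
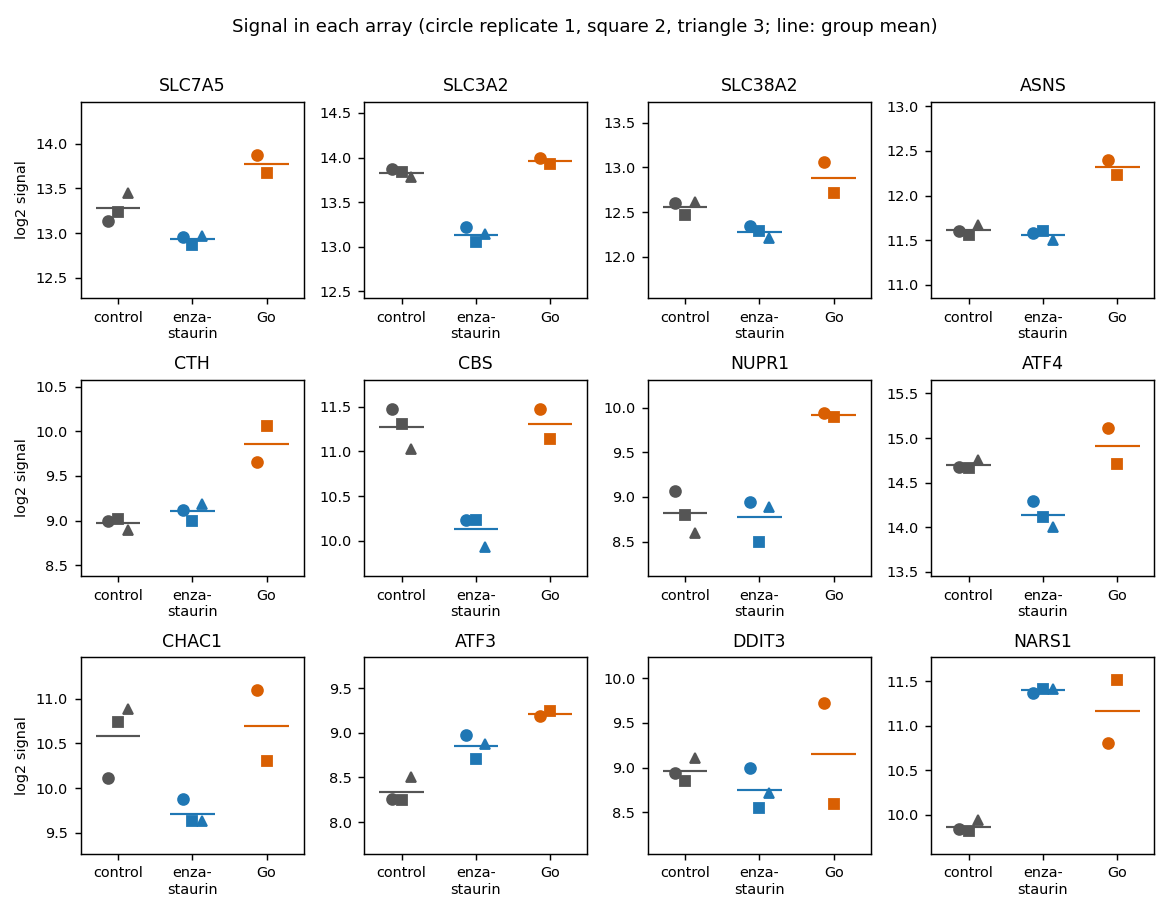
Each panel shows 1 gene, with its log2 signal on each array (circle replicate 1, square 2, triangle 3) and the mean of the group as a line, for control (grey), enzastaurin (blue) and Go (orange). In ASNS and NUPR1 both Go arrays sit above all 6 others, in CBS and SLC3A2 the enzastaurin arrays sit below all others, and in DDIT3 and CHAC1 the 2 Go arrays lie far apart.

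Of the 10 enzymes, 4 were higher with Go than with enzastaurin and 0 were lower, beside 2.37% and 1.63% of all gene names. The median difference was 0.39. The 4 were ASNS and the transsulfuration enzymes CBS and CTH, with the mitochondrial PEP carboxykinase PCK2. At an unadjusted p under 0.05, 9 were higher and 0 lower. The serine pathway enzymes did not pass the test between the compounds.

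ASNS, asparagine synthetase, which makes asparagine from aspartate and glutamine and whose promoter element is printed above, read 11.6, 11.56 and 11.67 in controls, 11.58, 11.6 and 11.5 with enzastaurin, and 12.4 and 12.23 with Go. Control and enzastaurin arrays overlapped and both Go arrays were above all of them. Go was above enzastaurin by 0.75 ± 0.09 (1.68-fold, adjusted p 0.00761) and above control by 0.7 ± 0.09 (1.62-fold, adjusted p 0.00578). Enzastaurin against control was -0.05, with a 95% interval of -0.24 to 0.14. Within the position sets Go 1 was 0.79 above the control mean and Go 2 0.66 above the enzastaurin mean.

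CBS joins homocysteine to serine in the first step of the path to cysteine. It read 11.48, 11.31 and 11.03 in controls, 10.23, 10.23 and 9.93 with enzastaurin, and 11.48 and 11.14 with Go. Control and Go overlapped, and the enzastaurin arrays were below all others. The difference was 1.18 ± 0.167 between Go and enzastaurin (2.27-fold, adjusted p 0.0121) and -1.14 ± 0.15 between enzastaurin and control (adjusted p 0.000959). A second CBS probe was called in both, with 0.65 (adjusted p 0.0451) and -0.66 (adjusted p 0.00366). Go against control was 0.04 (95% interval -0.35 to 0.42).

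CTH releases cysteine from the product of CBS. It read 8.99, 9.02 and 8.9 in controls, 9.12, 9 and 9.19 with enzastaurin, and 9.66 and 10.06 with Go. Unlike CBS, its control and enzastaurin arrays overlapped. Go was above enzastaurin by 0.76 ± 0.129 (adjusted p 0.0222) and above control by 0.89 ± 0.129 (adjusted p 0.0072). PCK2 read 11.08, 10.86 and 10.65 in controls, 10.43, 10.25 and 10.25 with enzastaurin, and 11.14 and 10.92 with Go. The enzastaurin arrays were lowest, with -0.55 ± 0.124 against control (adjusted p 0.00724) and 0.72 ± 0.139 between Go and enzastaurin (adjusted p 0.0328). A dimmer PCK2 probe was called in the first (-0.48, adjusted p 0.0343) and not in the second (0.54, adjusted p 0.13).

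The 3 enzymes that turn a glycolytic intermediate into serine passed different tests. PHGDH, the first, was lower with enzastaurin than control (difference -0.45 ± 0.13, adjusted p 0.0198). PSAT1, the next, was higher than control with both compounds, by 0.36 ± 0.083 with enzastaurin (adjusted p 0.00809) and 0.59 ± 0.093 with Go (adjusted p 0.0088). PSPH, the last, read 11, 11.19 and 11.45 in controls, 11.58, 11.61 and 11.41 with enzastaurin, and 11.82 and 11.85 with Go. By this probe PSPH was higher with Go than control by 0.62 ± 0.134 (adjusted p 0.0178). Its other probes gave -0.25 and 0.23 there, neither called (adjusted p 0.301 and 0.343), and the probe mean was 0.2 (adjusted p 0.158). For enzastaurin against control the 3 probes gave 0.32, -0.55 and -0.15 (adjusted p 0.051, 0.0216 and 0.471), and only the -0.55 was called.

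Among the mitochondrial folate enzymes, SHMT2, which converts serine to glycine, and MTHFD2 were lower with enzastaurin than control, with differences of -0.33 ± 0.073 (adjusted p 0.00655) and -0.42 ± 0.102 (adjusted p 0.0099). A second SHMT2 probe gave 0.1 there. ALDH1L2, which was above background on 1 of 3 control arrays, was higher than control with enzastaurin (0.27 ± 0.083, adjusted p 0.0244) and with Go (0.55 ± 0.093, adjusted p 0.0102).

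ASNS was called between the compounds in all 20 alternatives (adjusted p 0.00227 to 0.0479). The other 3 lost their calls without enzastaurin 1, 2 or 3, with differences close to those of all arrays. In that order CBS gave 1.23, 1.23 and 1.08 (adjusted p 0.0538, 0.0602 and 0.055, range 0.00196 to 0.0602). CTH gave 0.77, 0.71 and 0.8 (adjusted p 0.0978, 0.11 and 0.0705, range 0.00111 to 0.11), and 0.76 without control 2 (0.0556). PCK2 gave 0.78, 0.69 and 0.69 (adjusted p 0.0978, 0.142 and 0.12, range 0.0053 to 0.142), 0.72 without control 2 (0.0754) and 0.61 without Go 1 (0.0854). MTHFD2 was called higher with Go than enzastaurin without Go 2 (0.55, adjusted p 0.0237, range 0.0237 to 0.284). For enzastaurin against control with the position set as a block, CBS gave -0.8 (adjusted p 0.133, range 7.42e-08 to 0.133), PCK2 -0.34 (0.386, range 4.09e-06 to 0.386), PHGDH -0.38 (0.388), PSAT1 0.3 (0.273), SHMT2 -0.4 (0.131), MTHFD2 -0.1 (0.686) and ALDH1L2 0.07 (0.767). The call of PHGDH there was lost without control 1, control 2, enzastaurin 1 or enzastaurin 3 (-0.37, -0.44, -0.46 and -0.35, adjusted p 0.0621, 0.0632, 0.0567 and 0.0719), and that of ALDH1L2 without control 1 or 2 or enzastaurin 1, 2 or 3 (0.27, 0.25, 0.28, 0.25 and 0.29, adjusted p 0.054, 0.0852, 0.0652, 0.0902 and 0.0553). PSPH gained a call there without control 3 (0.44, adjusted p 0.00736) and lost that of Go against control without control 2 and without Go 2 (0.61 each, adjusted p 0.0649 and 0.0865).

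No gene of tRNA charging or export was called between the compounds, where 2.37% of all gene names were higher and 1.63% lower. Of the 8 genes 0 were called higher or lower with Go than with enzastaurin, with 4 higher and 0 lower by limma at an unadjusted p under 0.05 and a median difference of 0.22. Against control, 5 were lower with enzastaurin (XPOT, WARS1, AARS1, EPRS1 and SARS1) and 1 was higher (NARS1), which is 62.5% and 12.5% of the 8, beside 32.5% and 20.9% of all gene names. The 5 that were lower with enzastaurin had Go values between the other groups or among the controls.

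XPOT, the receptor that carries tRNA out of the nucleus, read 10.63, 10.42 and 10.48 in controls, 9.62, 9.89 and 9.7 with enzastaurin, and 10.31 and 10.1 with Go. The groups did not overlap, and the difference from control was -0.77 ± 0.106 with enzastaurin (adjusted p 0.00113) and -0.3 with Go (adjusted p 0.0837). A dimmer XPOT probe gave -0.31 with enzastaurin (adjusted p 0.028), -0.29 with Go, and 0.02 between the compounds, where its groups overlapped. WARS1, which charges tryptophan tRNA, read 11.63, 11.53 and 11.34 in controls, 10.88, 10.84 and 10.71 with enzastaurin, and 11.3 and 11.17 with Go. Its groups did not overlap either, with -0.69 ± 0.1 for enzastaurin against control (adjusted p 0.00131). The 0.43 between Go and enzastaurin was not called (adjusted p 0.0774, 95% interval 0.17 to 0.68).

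AARS1, the alanine enzyme, read 9.48, 9.34 and 9.04 in controls, 8.8, 8.69 and 8.72 with enzastaurin, and 9.4 and 8.97 with Go. Go overlapped control, and enzastaurin differed from control by -0.54 ± 0.145 (adjusted p 0.0148). EPRS1, the enzyme for glutamate and proline, read 12.58, 12.57 and 12.62 in controls, 12.13, 12.17 and 12.06 with enzastaurin, and 12.53 and 12.23 with Go. Its difference from control was -0.47 ± 0.093 with enzastaurin (adjusted p 0.00427). SARS1, the serine enzyme, differed by -0.3 ± 0.085 (adjusted p 0.0197).

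NARS1, the asparagine enzyme, went the other way. It read 9.84, 9.82 and 9.94 in controls, 11.37, 11.41 and 11.41 with enzastaurin, and 10.81 and 11.51 with Go. All 5 treated arrays were above every control, by 1.53 ± 0.158 with enzastaurin (2.89-fold, adjusted p 0.000525) and 1.29 ± 0.176 with Go (2.45-fold, adjusted p 0.00629). Within its position set Go 1 was 0.94 above the controls, and Go 2 was 0.11 from the enzastaurin mean. A single probe measured it.

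GARS1 and CARS1, for glycine and cysteine, passed no test. GARS1 read 9.19, 9.57 and 9.88 in the controls, a spread of 0.69, and between 9.92 and 10.01 on the treated arrays. Go and enzastaurin differed by 0.04 (95% interval -0.36 to 0.44) in GARS1 and by -0.03 (-0.33 to 0.27) in CARS1. Without control 3, GARS1 was called higher than control with enzastaurin (0.55, adjusted p 0.00582, range 8.72e-05 to 0.566) and with Go (0.59, adjusted p 0.0111, range 0.0111 to 0.499), and WARS1 higher with Go than enzastaurin (0.43, adjusted p 0.0425) and lower than control with Go (-0.34, adjusted p 0.0325). Without Go 2, XPOT, AARS1 and EPRS1 were called higher with Go than enzastaurin (0.58, 0.67 and 0.41) and NARS1 lower (-0.59, adjusted p 0.0118, range 0.0118 to 0.631). Without Go 1, EPRS1 was called lower than control with Go (-0.36, adjusted p 0.0247). The calls of AARS1 for enzastaurin against control were lost without control 2 or enzastaurin 2 (-0.52 and adjusted p 0.0527 in both), and that of SARS1 without control 1, control 2, enzastaurin 1, 2 or 3 (-0.24, -0.29, -0.31, -0.31 and -0.28, adjusted p 0.0572, 0.0632, 0.0562, 0.054 and 0.0693). With the position set as a block, enzastaurin against control gave 0.83 for NARS1 (adjusted p 0.0293, range 6.72e-09 to 0.0293), -0.56 for XPOT (0.138), -0.56 for WARS1 (0.135), -0.11 for AARS1 (0.796), -0.17 for EPRS1 (0.429) and -0.18 for SARS1 (0.492).

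**Figure D4:**
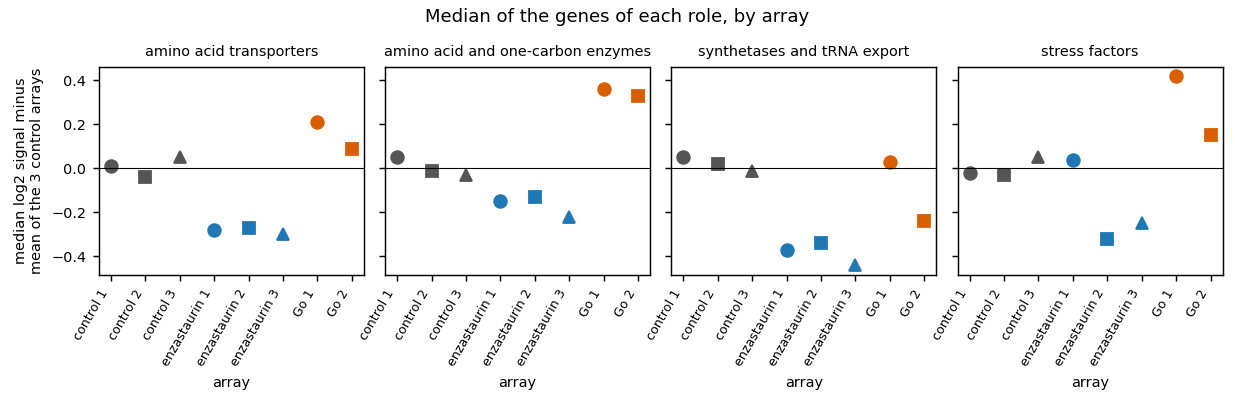
Points give, for each array, the median over the genes of a role of the log2 signal minus the mean of the 3 control arrays, in 1 panel for each of the 4 roles. The enzyme median is 0.36 and 0.33 on the Go arrays and -0.15, -0.13 and -0.22 with enzastaurin, while the tRNA gene median is 0.03 on Go 1 and -0.24 on Go 2.

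Among the 12 stress factors, 4 were higher with Go than with enzastaurin and 0 lower, beside 2.37% and 1.63% of all gene names. The median difference was 0.42, with 7 higher and 0 lower by limma at an unadjusted p under 0.05. The 4 were NUPR1, ATF4 itself, the secreted glycoprotein STC2 and the C/EBP partner CEBPG. DDIT3, which encodes the apoptosis-linked factor CHOP, and its target TRIB3 were not called in any of the 3 comparisons.

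ATF4 read 14.67, 14.66 and 14.75 in controls, 14.3, 14.12 and 14 with enzastaurin, and 15.11 and 14.71 with Go. The enzastaurin arrays were below all others, and Go 2 lay within the control range. Go was above enzastaurin by 0.77 ± 0.135 (1.71-fold, adjusted p 0.025), and enzastaurin differed from control by -0.55 ± 0.121 (adjusted p 0.00666). Go against control was 0.22 (95% interval -0.09 to 0.53). A second ATF4 probe gave 0.52 between the compounds (adjusted p 0.103) and -0.56 for enzastaurin against control (adjusted p 0.0106). For Go against control that probe gave -0.04 (adjusted p 0.847), opposite in sign to the first.

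NUPR1, a small stress-induced chromatin protein, read 9.07, 8.8 and 8.6 in controls, 8.94, 8.49 and 8.89 with enzastaurin, and 9.94 and 9.9 with Go. Control and enzastaurin overlapped, and both Go arrays were above them all. The difference was 1.14 ± 0.172 from enzastaurin (2.21-fold, adjusted p 0.0153) and 1.09 ± 0.172 from control (2.13-fold, adjusted p 0.00883). Go 1 was 1.11 above the control mean and Go 2 1.12 above the enzastaurin mean, each within its position set.

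CEBPG was higher with Go than enzastaurin by 0.53 ± 0.086 (adjusted p 0.02), higher with Go than control by 0.27 ± 0.086 (adjusted p 0.0495), and differed between enzastaurin and control by -0.26 ± 0.077 (adjusted p 0.0222). STC2 read 9.28, 9.29 and 9.36 in controls, 9.37, 8.91 and 8.99 with enzastaurin, and 9.82 and 9.86 with Go. Go was above enzastaurin by 0.75 ± 0.134 (adjusted p 0.0268) and above control by 0.53 ± 0.134 (adjusted p 0.0263). A dimmer STC2 probe disagreed. It was not well above background on the control arrays (5.79, 5.7 and 6.02) and read 7.48, 7.21 and 7.31 with enzastaurin and 6.9 and 7.88 with Go. By that probe STC2 was at least 2.69-fold higher with enzastaurin than control (adjusted p 0.00154) and at least 2.8-fold higher with Go (adjusted p 0.00953). The bound takes, for each control array, the larger of the probe's own value and the dimmest value measured above background. Between the compounds that probe gave 0.06 (adjusted p 0.919).

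ATF3, an immediate stress factor whose promoter motif is printed above, was higher than control with both compounds. It read 8.26, 8.25 and 8.5 in controls, 8.97, 8.71 and 8.87 with enzastaurin, and 9.19 and 9.24 with Go. The groups did not overlap, with 0.51 ± 0.103 for enzastaurin (adjusted p 0.00465) and 0.88 ± 0.115 for Go (adjusted p 0.00593). The 0.36 between the compounds was not called (adjusted p 0.121), and a second, dimmer probe gave 0.11 and 0.16 against control.

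CHAC1, which degrades glutathione, read 10.11, 10.74 and 10.89 in controls, 9.88, 9.63 and 9.63 with enzastaurin, and 11.1 and 10.3 with Go. Its enzastaurin arrays were below all others, and the difference from control was -0.87 ± 0.249 (adjusted p 0.02). Between Go and enzastaurin the difference was 0.99 ± 0.278, and was not called (adjusted p 0.092), with Go 1 above and Go 2 within the range of the controls.

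DDIT3 read 8.94, 8.85 and 9.11 in controls, 9, 8.55 and 8.71 with enzastaurin, and 9.72 and 8.59 with Go. Go 1 was above and Go 2 below every control array. The difference between the compounds was 0.41 (95% interval -0.26 to 1.07, adjusted p 0.441). Enzastaurin against control was -0.21, and 0.91 with the position set as a block (adjusted p 0.0943). TRIB3, a pseudokinase that binds ATF4 and CHOP, read 12.66, 12.45 and 12.47 in controls, 12.66, 12.54 and 12.22 with enzastaurin, and 12.94 and 12.87 with Go. Both Go arrays were above all others, by 0.43 over enzastaurin (95% interval 0.11 to 0.75, adjusted p 0.122) and 0.38 over control (adjusted p 0.0697). By a dimmer TRIB3 probe Go 1, at 8.33, was above and Go 2, at 7.2, below all other arrays, with 0.15 between the compounds and -0.16 for Go against control (adjusted p 0.767 and 0.666).

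The other stress factors DDIT4, SESN2, CEBPB and ATF5 passed no test. DDIT4 and SESN2 encode inhibitors of mTORC1 signalling, and Go minus enzastaurin was 0.23 (95% interval -0.13 to 0.6) and 0.06 (-0.21 to 0.34). CEBPB read between 13.46 and 13.68 on all 8 arrays by its brighter probe, and scaling to the median turned its enzastaurin against control difference from -0.02 to 0.26 (adjusted p 0.0327). A dimmer CEBPB probe read between 8.08 and 8.99 and was not called. It gave -0.44 for Go against control and -0.26 for enzastaurin against control (adjusted p 0.0973 and 0.212). ATF5 was above background on 2 of 3 controls, 3 of 3 enzastaurin arrays and 1 of 2 Go arrays.

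NUPR1, ATF4 and CEBPG lost their calls between Go and enzastaurin whichever enzastaurin array was left out. Without enzastaurin 1, 2 and 3, NUPR1 gave 1.23, 1 and 1.2 (adjusted p 0.0509, 0.0602 and 0.0555, range over 20 alternatives 0.00316 to 0.0602), ATF4 0.85, 0.76 and 0.7 (adjusted p 0.0689, 0.116 and 0.0945, range 0.00564 to 0.116) and CEBPG 0.54, 0.51 and 0.54 (adjusted p 0.0911, 0.105 and 0.0791, range 0.00544 to 0.105). ATF4 also lost its call without control 2 (0.77, adjusted p 0.0618) and without Go 1 (0.57, adjusted p 0.053). STC2 lost it without control 2, enzastaurin 2, enzastaurin 3 and Go 1, with 0.75, 0.66, 0.7 and 0.77 (adjusted p 0.0658, 0.112, 0.103 and 0.0541, range 0.0125 to 0.202). Without Go 2, CHAC1, DDIT3 and DDIT4 were called higher with Go than enzastaurin, by 1.39, 0.97 and 0.53, and without Go 1 DDIT4 was called lower than control (-0.41, adjusted p 0.0207). For Go against control STC2 lost its call without control 1, control 2 or Go 2 (0.51, 0.52 and 0.51, adjusted p 0.0646, 0.081 and 0.122), TRIB3 gained one without enzastaurin 3 (0.0495), and CEBPG lost its call without every array left out but control 3 (0.22 to 0.29, adjusted p 0.0809 to 0.144, range over 20 alternatives 0.0267 to 0.364). For enzastaurin against control, STC2 gained a call without enzastaurin 1 (-0.36, adjusted p 0.021), DDIT4 without Go 1 or Go 2 (-0.34, adjusted p 0.00646), CEBPG lost it without control 1 or enzastaurin 1, 2 or 3 (-0.28 to -0.24, adjusted p 0.0551 to 0.0824), and CHAC1 without control 2, enzastaurin 2 or enzastaurin 3 (-0.79, -0.83 and -0.83, adjusted p 0.07, 0.0649 and 0.0653). With the position set as a block that comparison gave -0.16 for ATF4 (adjusted p 0.591, range 1.53e-05 to 0.591), -0.06 for CHAC1 (0.932), -0.22 for CEBPG (0.379) and 0.46 for ATF3 (0.213).

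No spot of these genes was saturated. Of 15 genes with more than 1 tested probe, the probes agreed in sign in 11 between Go and enzastaurin, in 11 between enzastaurin and control and in 8 between Go and control. Agreement in sign includes probes of unlike size, such as 0.75 and 0.06 in STC2 between the compounds. In that comparison both probes were called in CBS and SLC38A2, and 1 of 2 in SLC3A2, SLC7A5, ATF4, PCK2 and STC2.

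Genes next to this response were counted in lists drawn up by function. Each count between Go and enzastaurin in these lists stands beside 2.37% higher and 1.63% lower of all gene names. Of 16 other cytoplasmic synthetases and scaffold proteins, 0 were called between Go and enzastaurin in either direction (1 higher and 1 lower by limma at an unadjusted p under 0.05), and the median was 0.01. Against control 5 were higher and 4 lower with enzastaurin (31.2% and 25% of the 16, beside 20.9% and 32.5% of all gene names), and 4 were higher and 2 lower with Go (25% and 12.5%, beside 12.9% and 16.4%). MARS1, the methionine enzyme, read 8.95, 9.49 and 10.63 in controls and between 11.9 and 12.23 on the treated arrays, which is 2.32 ± 0.362 for enzastaurin (adjusted p 0.00173) and 2.37 ± 0.404 for Go (adjusted p 0.0105). Its controls span 1.68, and no treated array overlaps them. LARS1, the leucine enzyme, differed from control by 0.66 with enzastaurin and 1.03 with Go (adjusted p 0.0401 and 0.0244), with controls of 8.33, 8.88 and 9.32.

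Of 16 mitochondrial synthetases 0 were called between the compounds (3 higher and 2 lower at an unadjusted p under 0.05 by limma). With enzastaurin 3 were higher and 7 lower than control (18.8% and 43.8%, beside 20.9% and 32.5% of all gene names). MARS2, not well above background on any control array, was at least 1.67-fold higher with enzastaurin (adjusted p 0.000419), where 2 of 3 arrays measured it. FARS2 (-0.69 ± 0.118) and NARS2 (0.58 ± 0.094) had the next largest differences among those called there. Of 14 genes that sense or reset eIF2 alpha phosphorylation, 0 were called between the compounds (2 higher and 4 lower at an unadjusted p under 0.05 by limma). With enzastaurin 2 were higher than control and 5 lower (14.3% and 35.7%, near the 20.9% and 32.5% of all gene names), and with Go 1 was higher and 4 were lower (7.14% and 28.6%, beside 12.9% and 16.4%). GCN1, which couples stalled ribosomes to GCN2, was higher than control by 0.84 with both compounds (adjusted p 0.00761 and 0.0262), with controls of 12.07, 12.4 and 12.86. EIF2AK1, the heme-regulated kinase, was lower with enzastaurin than control (-0.74 ± 0.108, adjusted p 0.00135), as was EIF2B2, a subunit of the factor that phosphorylated eIF2 alpha inhibits (-0.59 ± 0.102, adjusted p 0.00262).

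Of 14 measured genes that are otherwise tied to ATF4, 2 were higher with Go than enzastaurin and 0 lower (4 and 2 at an unadjusted p under 0.05 by limma). JDP2, an AP-1 repressor, read 11, 10.77 and 10.64 in controls, 9.73, 9.58 and 9.6 with enzastaurin, and 11.19 and 11.24 with Go, a difference of 1.58 ± 0.118 between the compounds (adjusted p 0.00187). The other was GPT2, the mitochondrial alanine aminotransferase, with 0.5 ± 0.105 (adjusted p 0.0413), named after its value was seen. SHMT1, the cytoplasmic partner of SHMT2, was higher with enzastaurin than control by 0.82 ± 0.128 (adjusted p 0.00173) by its brighter probe. A dimmer one was not well above background with enzastaurin, at least 1.33-fold below control (adjusted p 0.0284). MTHFD1L, a mitochondrial folate enzyme, was higher than control by 0.66 with both compounds (adjusted p 0.00506 and 0.0206). Of the 14 genes otherwise tied to ATF4, 2 were higher and 6 lower with enzastaurin than control. These are 14.3% and 42.9%, beside 20.9% and 32.5% of all gene names. With Go 3 of them were higher than control and 2 lower (21.4% and 14.3%, beside 12.9% and 16.4%). Of 14 targets and sensors of the ATF6 and XBP1 branches of the unfolded protein response, 0 were called between the compounds (4 higher and 3 lower at an unadjusted p under 0.05 by limma). The median was 0, and 0 were higher and 5 lower (35.7%) with enzastaurin than control (1 and 5 at an unadjusted p under 0.05). Of all gene names 20.9% were higher and 32.5% lower there. XBP1 itself was lower with enzastaurin than control (-0.58 ± 0.105, adjusted p 0.00312). With Go 1 gene of this list was higher than control and 3 were lower (7.14% and 21.4%, beside 12.9% and 16.4% of all gene names). HERPUD1 was higher by 0.66 ± 0.156 (adjusted p 0.0221), and EDEM1 (-0.38, adjusted p 0.0197), DNAJB11 and ERN1 (-0.29 and -0.28, adjusted p 0.0435 each) were lower. Of the 9 squamous markers 0 were higher and 2 lower with Go than enzastaurin (0 and 3 at an unadjusted p under 0.05 by limma): SFN, by -0.84 ± 0.091 (adjusted p 0.00594), and COL17A1, by -0.51 ± 0.109 (adjusted p 0.0451). With Go 1 of the 9 was higher than control and 4 were lower (11.1% and 44.4%, beside 12.9% and 16.4% of all gene names). With enzastaurin 2 were higher and 1 lower (22.2% and 11.1%, beside 20.9% and 32.5%). Of the 3 fibroblast markers tested, LUM was higher with enzastaurin than control (0.63, adjusted p 0.00191) and lower with Go than enzastaurin (-0.53, adjusted p 0.0441), and the others were not called. Of the 4 leukocyte markers tested, HLA-DRA was higher than control by 1.13 with enzastaurin and 0.5 with Go (adjusted p 0.000842 and 0.0464), CD3E was lower, with differences of -0.69 and -0.41 (adjusted p 0.00138 and 0.0323), and none was called between the compounds (1 higher and 1 lower at an unadjusted p under 0.05 by limma). The 2 endothelial markers tested were called in no comparison (0 higher and 1 lower at an unadjusted p under 0.05 for enzastaurin against control by limma). The part of these markers in the differences above was not tested.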

How the data were processed

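Total RNA of CAL-27 cells, labelled with Cy3 per the labels, was measured on 8 single-colour Agilent arrays in 3 groups taken from the labels. The scanner tables give foreground and background intensity for each spot in a channel of a longer wavelength, per the file headers, neither corrected nor normalised. They also give a signal-to-noise score, the percent of saturated pixels and spot positions, as deposited. A deposited value table was read as background-subtracted linear intensity with a floor of 0.5 and no normalisation. Between 66.0% and 70.0% of its values on an array lie within 1 intensity unit of the scanner's foreground median minus background, and the rank correlation across probes is 0.9904 to 0.9937. Sample medians are 38 to 56. How the value table was computed and the build of its annotation are not given in the sources used here.

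The annotation columns of the scanner tables run in reverse spot order (rank correlation 0.0072 to 0.013 as deposited), so the value table, joined by probe ID, was used. Values were offset by 50, taken to log2 and quantile normalised. Probes with a score over 3 on at least 2 arrays were tested with limma 3.58.1 in R 4.3.3, all 8 arrays in 1 fit of 3 groups (5 residual degrees of freedom and a prior of 3.18), and p-values were adjusted by Benjamini-Hochberg over all probes. The tested probe of highest mean stood for a gene. The number of arrays limits the precision. The fit was tested on simulated data. Alternatives were another source of signal, 2 scalings, offset 16, 2 filters, probe means, fewer groups, blocks, array weights and leaving out each array. The position block repeats the difference of a fit with 1 Go array, so not all alternatives are separate checks.

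Values on every array are given for ATF4, DDIT3, TRIB3, ASNS, SLC7A5 and SLC3A2 and, in each role, for up to 5 genes with the largest difference among those called in at least 1 comparison and measured above background throughout 1 group or more. In other lists up to 3 called genes are named, largest first. Members and lists were chosen with earlier results of these data known. Promoters are RefSeq sequences of GRCh38.p14.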

Additional observations from a re-analysis of the deposited data

How the results depend on the processing

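Between Go and enzastaurin the 11 genes called higher became 7 with the position set as a block, 17 within the set that holds Go 2, 6 with array weights and 2 to 18 when 1 array was left out (0 to 1 lower). The low counts came without an enzastaurin array, when all gene names called fell from 754 to 127, 93 and 135, and the high count without Go 2, with 1958. ASNS and SLC3A2 were called higher in all 20 alternatives, not all of which are separate checks. For enzastaurin against control, scaling to the median gave 9 higher and 5 lower, the block 1 and 0, and array weights 9 higher. The calls over all gene names fell there from 10062 to 564 with the block and rose to 15537 with array weights. Leaving out 1 control or enzastaurin array gave 3 to 6 higher and 11 to 17 lower in that comparison. For Go against control, a fit of only these groups and the comparison within the set each gave 0 higher, and leaving out 1 array gave 7 to 12 higher and 0 to 2 lower. Over single genes, 1872 of the values in the alternatives kept direction and side of the threshold, 161 lost a call, 60 gained one and 90 turned sign, in 27 genes. None of the 90 started from a called value, and 2 ended in a call, CEBPB and STC2 below. The cause was not tested. Each position set holds 1 Go array, so some alternatives repeat 1 contrast and are not separate checks. Between Go and enzastaurin, the block, the comparison within the set and leaving out Go 1 all give Go 2 minus the enzastaurin mean. That difference was 0.07 in ATF5, -0.09 in CEBPB, -0.16 in DDIT3, -0.07 in DDIT4, -0.11 in SESN2 and 0.11 in NARS1. Median scaling gave CEBPB -0.08 and GARS1 -0.06, the 75th percentile SLC7A11 0.04, scanner signal SLC1A5 0.01, SLC7A11 0.02 and CEBPB -0.06, and probe means SLC1A4 -0.02 and CEBPB -0.08. Without 1 array the ranges were ATF5 -0.22 to 0.07, CARS1 -0.25 to 0.19, CEBPB -0.09 to 0.13, DDIT3 -0.16 to 0.97, DDIT4 -0.07 to 0.53, NARS1 -0.59 to 0.11, SESN2 -0.11 to 0.24, SLC1A5 -0.1 to 0.04 and SLC7A11 -0.21 to 0.19. For enzastaurin against control, the block gave ASNS 0.12, CTH -0.27, SLC38A2 0.07, ATF5 -0.09, CEBPB 0.2, DDIT3 0.91, DDIT4 0.25 and TRIB3 0.02. Median scaling gave ASNS 0.23, CEBPB 0.26 (adjusted p 0.0327), NUPR1 0.16, STC2 0.01 and TRIB3 0.22, the 75th percentile CEBPB 0.02, and scanner signal CEBPB 0.1. Probe means gave PSPH -0.13, SLC1A4 0.05 and STC2 0.64 (adjusted p 0.00941), and array weights ASNS 0.01, CEBPB 0.02 and TRIB3 0.07. Without 1 array NUPR1 ranged from -0.16 to 0.09 and TRIB3 from -0.15 to 0.07. For Go against control, the block, the comparison within the set and leaving out Go 2 all give Go 1 minus the control mean. That difference was 0.13 in MTHFD2, -0.01 in ATF5, 0.19 in DDIT4 and 0.12 in AARS1. Median scaling gave MTHFD2 0.13, PHGDH 0.09, SHMT2 0.11, SLC7A1 0.12, DDIT4 0.02, AARS1 0.02 and SARS1 0.06. Array weights gave MTHFD2 0.04, SLC7A1 0.05, CHAC1 -0.04 and CARS1 -0.01, and probe means SLC1A4 0.03 and SLC3A2 -0.03. Without 1 array the ranges were AARS1 -0.32 to 0.12, ATF5 -0.01 to 0.28, CARS1 -0.17 to 0.28, CBS -0.13 to 0.21, CHAC1 -0.28 to 0.52, DDIT3 -0.37 to 0.76, DDIT4 -0.41 to 0.19, MTHFD2 -0.19 to 0.13, PHGDH -0.16 to 0.02 and SLC7A1 -0.05 to 0.03. Scanner signal, offset 16, the 75th percentile, both filters and probe means kept every count of calls within 1.5 times.

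Replicate numbers are shared between groups in the labels, but same-numbered arrays deviated together with correlations of -0.14 to 0.17, so the numbers were not taken to pair samples. With the replicate block, 5 genes were higher between Go and enzastaurin and 1 gene was lower with Go than control, where CBS turned to -0.07. Over all gene names that block took the calls between Go and enzastaurin from 754 to 186. A lone array left in a group is assumed to vary like the others. Signal over background limits SLC7A11, ALDH1L2, ATF5 and SLC1A4, which were not above background on every array.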
